A study of Mus musculus with 18 samples.

Results

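Ift140 knockout cells were set against wild-type cells after both had been kept under fluid flow. The 6 libraries compared, 3 of each genotype, were taken by their labels from a series of 18. All are RNA of IMCD3, a mouse cell line of the inner medullary collecting duct, the last part of the kidney tubule, whose strain background is labelled Tg(SV40E)bri/7 in every group. The cells were at passage 10 to 15 and stood in microslide chambers for 3 h under a shear stress of about 0.7 dyne/cm2. The other 12 libraries are the same genotypes kept static and a Dync2h1 knockout line in both conditions. They are used here where a difference is measured against them and in estimating the spread between replicates. The labels name 1 knockout of Ift140, without saying how the gene was changed, whether the line is 1 clone or several, or whether the 3 replicates are separate cultures. The p-values therefore measure only the spread between libraries, pooled over all 18. A difference between the genotypes and a difference between 2 cell lines cannot be told apart.

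The primary cilium is a single antenna-like organelle that collecting duct cells hold into the lumen of the tubule, where urine flow bends it. Cargo moves along it by intraflagellar transport: IFT-B and kinesin-2 carry it towards the tip, and IFT-A with the dynein-2 motor brings it back. Ift140 encodes a core subunit of IFT-A, and its loss in the kidney is known to impair cilia and to cause cysts. The comparison addresses which transcripts differ between the wild-type and Ift140 knockout lines under the same flow. Cilia themselves were not measured in the files used here.

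Expression is in TPM, the unit that gives each gene's share of a library's transcripts corrected for gene length, so levels can be compared between genes while the sequencing depth behind them is unknown. Of 49845 gene names, 15261 reached 1 TPM in at least 3 of the 6 flow libraries and were tested, and 34584 did not. Among those tested, 65 had no wild-type library at 1 TPM and 113 had no knockout library at that level, so these could only be high in the other genotype. Before scaling, their groups could not overlap. Of the genes named below, Ap1m2, Ms4a2 and Dll4 are among the 65. Serpinh1, Grb10, Pygl, Kif21a, Ephb6, Klf4, Egln3, Twist1, Col5a1 and Bmp7 are among the 113. A log2 difference is the mean of knockout minus that of wild type on the log2(scaled TPM + 1) scale, ± its standard error (SE), and understates the change of genes near 0. The adjusted p is that of limma's moderated test with Benjamini-Hochberg adjustment over all 15261 genes, and a gene rose or fell where it is under 0.05.

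The targeted gene was measured first. Ift140 (chr17:25016085-25099495, GRCm38) stood at 16.4, 15.0 and 18.4 scaled TPM in wild type and at 7.61, 8.47 and 15.4 in the libraries labelled Ift140 knockout replicates 1, 2 and 3. Replicate 3 lay within the wild-type range, and the other knockout libraries lay below it. The log2 difference was -0.67 ± 0.20 (adjusted p = 0.029) with all 6 libraries and -0.96 ± 0.15 (adjusted p = 0.00047) without replicate 3. In static culture, where no library is shared with this comparison, it was -1.32 ± 0.20 (adjusted p = 0.00024). Under flow the call ended with deposited TPM not scaled further, with no filter on low values, with the 6 flow libraries alone, and without wild-type replicate 1 or 3 or knockout replicate 1 or 2 (-0.68, -0.60, -0.49 and -0.56). A gene-level value shows a knockout only where the change removes or destabilises the transcript, and which part of Ift140 was changed is not given in the sources used here.

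The library labelled Ift140 knockout flow replicate 3 stood apart in other ways as well. In it, 1107 genes differed by more than 2-fold from the mean of replicates 1 and 2, of which 831 were higher and 276 lower, while the same count in the other 17 libraries of the series ran from 158 to 533. The median longest annotated transcript was 3937 bases for the genes higher in it and 152 bases for those lower in it, against 2810 bases over all genes tested. Small and structural RNA genes made up 153 of the 276 lower genes, 59 of the 831 higher ones and 611 of the 15261 tested. Serpinh1, Cubn and Ap1m2, which lay far apart between the genotypes, stood with the other knockout libraries in replicate 3 (0.50, 6.01 and 14.1 scaled TPM). They were chosen from genes whose flow groups did not overlap, so replicate 3 could not lie within the wild-type range in them. The counts, gene lists and differences are therefore given with and without this library.

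Epithelial genes were high in all 6 libraries: Krt8 and Krt18, the simple epithelial keratins, stood at 1766 to 2298 and 1004 to 1358 scaled TPM, and Cdh16, the kidney cadherin, at 215 to 339. Several genes that define collecting duct cells in the kidney were at or near 0. Aqp2, the vasopressin-regulated water channel of principal cells, did not exceed 0.045 in these 6 libraries, and Kcnj1, the apical potassium channel, was listed at 0 in all 18. Of the 10 intercalated cell markers, none passed the filter. Of 12 markers each for endothelium, leukocytes and fibroblasts, 2 were tested per list and none rose or fell, and their summed levels were 19.0 to 27.2, 10.8 to 13.9 and 4.13 to 5.52 scaled TPM in wild type against 18.5 to 25.0, 13.3 to 25.0 and 3.95 to 5.82 in the knockout. The highest leukocyte sum was that of replicate 3, while Ptprc, the pan-leukocyte gene CD45, did not exceed 1.78 in any of the 18 libraries. In bulk RNA, fewer cells of a kind and less RNA per cell cannot be told apart.

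Under flow, 2567 of the 15261 genes (16.8%) passed, 1319 higher and 1248 lower in the knockout (8.64% and 8.18%). Without replicate 3 the count was 2373 (15.5%), 1256 higher (8.23%) and 1117 lower (7.32%), and 1885 genes (12.4%) passed both ways in the same direction, 981 of them higher (6.43%) and 904 lower (5.92%). No gene that passed in both fits changed direction. Irrespective of the test, the 3 knockout libraries of 4472 genes (29.3%) lay all above or all below the 3 wild-type ones. The 15 largest rises and 15 largest falls described below were picked from such genes, so their separation was set by the choice. Of the 1885 genes that passed both ways, 1842 had groups that did not overlap in that direction. Most list members named below were chosen by smallest p from the 1885, so their separation adds little. A difference of at least 2-fold was reached by 370 of the 2567, 158 higher and 212 lower. Protein-coding genes made up 2152 of the 2567 calls and 11565 of the 15261 genes tested. The fit draws on all 18 libraries to estimate the spread between replicates. The SD of each library from the mean of the others of its group was 0.40, 0.46 and 0.55 in the knockout under flow. It was 0.35, 0.33 and 0.34 in wild type under flow, so the pooled spread can understate that of the knockout group. With the 6 flow libraries alone 679 genes passed (4.45%), 318 higher (2.08%) and 361 lower (2.37%), or 1098 without replicate 3. The plot of the difference with and without replicate 3 shows where the calls part.

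**Figure D1:**
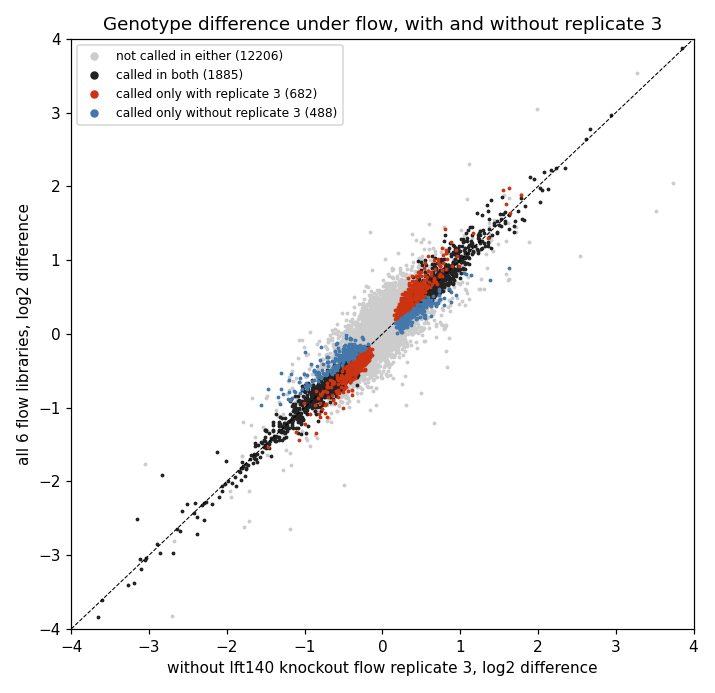
Each point is 1 of the 15261 genes tested, with the knockout minus wild-type log2 difference under flow without knockout replicate 3 on the x axis and with all 6 libraries on the y axis, and the dashed line marks equal differences. Black points (1885 genes) passed both ways, red ones (682) only with replicate 3 and blue ones (488) only without it, and 7 genes beyond ±4 lie outside the axes.

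Genes of the cytosolic heat shock list rose in the knockout. Most encode chaperones or co-chaperones that help refold damaged proteins. Heat shock genes are switched on together by the transcription factor HSF1, which binds heat shock elements built from inverted repeats of nGAAn. The list also holds Hspd1 and Hspe1, whose products work in mitochondria (0.74 and 0.69, both counted as rises), and the transcription factor genes Hsf1 and Hsf2. Of 24 listed, all of which were tested, 19 rose and 1 fell with all libraries (83.3% passed, against 16.8% of all genes), and 20 rose and 1 fell without replicate 3. The median log2 difference of the 24 was 0.62 (0.67 without replicate 3), against 0.015 over all genes tested. In static culture 11 rose and 1 fell, with a median of 0.31, where 9.66% of all genes rose and 9.63% fell. With the 6 flow libraries alone in the fit 12 rose and none fell.

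Within this list the largest rises were those of the inducible Hsp70 pair. Hspa1b (chr17:34956436-34959238) stood at 69.5, 84.1 and 86.7 scaled TPM in wild type and at 665, 573 and 652 in the knockout, and its near-identical neighbour Hspa1a (chr17:34969190-34972156) at 4.39, 5.08 and 6.3 against 41.5, 33.1 and 38.7. The groups were far apart for both genes, though not overlapping was part of the rule that named the largest rises. The log2 differences were 2.96 ± 0.09 (adjusted p = 5.17e-12) for Hspa1b and 2.64 ± 0.13 (adjusted p = 2.59e-09) for Hspa1a, and 2.94 and 2.62 without replicate 3. Reads of such close copies can be divided between them arbitrarily, so their sum is the safer value: 85.4 ± 10.1 (SD, n = 3) in wild type and 668 ± 53.9 (SD, n = 3) in the knockout under flow, and 28.0 ± 1.69 and 70.8 ± 7.44 in static culture. In the Dync2h1 knockout line under flow the sum was 380 ± 1.35 (SD, n = 3), and Hspa1b was 0.77 higher on the log2 scale in the Ift140 knockout than in that line (adjusted p = 1.53e-05), or 0.74 without replicate 3.

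The stretches of 250 bases before the annotated start sites of the 4 heat shock genes with the largest rises are printed because they show what these members share and where they differ upstream of the transcript. They are RefSeq sequences of GRCm38.p6, written 5′ to 3′ on the strand of the gene. In capitals is GAANNTTC, a core that heat shock elements can hold, though not the only order of their inverted repeats. The motif is its own reverse complement, so a search of either strand finds the same matches. The windows are Hspa1b at chr17:34959239-34959488 (minus strand), Hspa1a at chr17:34972157-34972406 (minus strand), Hsph1 at chr5:149636337-149636586 (minus strand) and Bag3 at chr7:128523333-128523582 (plus strand).
Hspa1b: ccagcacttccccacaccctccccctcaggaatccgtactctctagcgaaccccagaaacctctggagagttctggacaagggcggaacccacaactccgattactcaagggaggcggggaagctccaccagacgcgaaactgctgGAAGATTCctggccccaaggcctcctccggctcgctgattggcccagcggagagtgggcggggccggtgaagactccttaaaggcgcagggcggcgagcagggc
Hspa1a: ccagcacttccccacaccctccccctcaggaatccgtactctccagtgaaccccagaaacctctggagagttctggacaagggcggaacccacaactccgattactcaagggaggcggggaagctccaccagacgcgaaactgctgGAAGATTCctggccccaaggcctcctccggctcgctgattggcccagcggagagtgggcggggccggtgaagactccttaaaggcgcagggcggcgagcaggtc
Hsph1: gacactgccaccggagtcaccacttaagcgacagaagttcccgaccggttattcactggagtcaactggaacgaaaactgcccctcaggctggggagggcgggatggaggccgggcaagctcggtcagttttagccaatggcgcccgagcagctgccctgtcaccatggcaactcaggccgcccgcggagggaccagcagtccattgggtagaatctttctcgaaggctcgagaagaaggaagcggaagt
Bag3: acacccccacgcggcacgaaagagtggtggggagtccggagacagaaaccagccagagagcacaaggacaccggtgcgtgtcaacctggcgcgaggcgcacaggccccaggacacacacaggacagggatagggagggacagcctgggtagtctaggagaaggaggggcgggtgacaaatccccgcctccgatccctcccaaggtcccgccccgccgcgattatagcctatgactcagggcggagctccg
The Hspa1b and Hspa1a stretches had the same base at 247 of 250 positions (98.8%), and each held the motif once, beginning 104 bases before the start site. None was found in the Hsph1 and Bag3 stretches, which says only that these letters are not in these windows. Of 32851 promoter windows of this length, 2199 (6.69%) held GAANNTTC. Of the 24 listed heat shock genes, 19 had a window, and 6 of these held the motif, all among the 14 that rose with and without replicate 3. The mitochondrial Hspe1 was among the 6. A match is a description of the sequence and was not tested as a binding site.

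The other heat shock genes differed less. Hsph1, which encodes the Hsp110 nucleotide exchange factor of Hsp70, stood at 102, 79.7 and 73.7 scaled TPM in wild type and at 222, 212 and 496 in the knockout. Its log2 difference was 1.75 ± 0.26 (adjusted p = 0.00026), and 1.35 ± 0.19 (adjusted p = 0.00019) without replicate 3, which held the highest value by more than 2-fold. Bag3, a co-chaperone of Hsp70 in selective autophagy, rose by 1.35 ± 0.17 (adjusted p = 6.6e-05) from 3.47 to 4.47 in wild type to 8.19 to 15.3 in the knockout, and by 1.15 without replicate 3.

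Hsp90aa1, the inducible Hsp90, stood at 903, 899 and 942 against 1601, 1689 and 1465 scaled TPM, a log2 difference of 0.79 ± 0.07 (adjusted p = 1.22e-06) and of 0.85 without replicate 3. Dnajb1, the Hsp40 partner that loads clients onto Hsp70, stood at 89.1, 96.6 and 95.9 against 193, 159 and 182, a difference of 0.91 ± 0.08 (adjusted p = 1.24e-06) and of 0.89 without replicate 3. For both genes every knockout library lay above every wild-type one. Hspb8, the member that fell, is named because its direction differed: its log2 difference was -0.41 (adjusted p = 0.0036), and -0.34 (adjusted p = 0.012) without replicate 3, and its call ended with the 6 flow libraries alone. Chaperones of the endoplasmic reticulum differed less, and 11.5% of the list that holds them passed, against 16.8% of all genes. Of the 26 genes of the ATF4 and unfolded protein response, 3 rose and none fell (4 and none without replicate 3), with a median of 0.05, and the 3 were Psat1, a serine synthesis enzyme (0.46 ± 0.06, adjusted p = 0.00016, and 0.52 without replicate 3), and the chaperones Hspa5 (0.33 ± 0.10, adjusted p = 0.031) and Hsp90b1 (0.28 ± 0.09, adjusted p = 0.036). The calls of Hspa5 and Hsp90b1 stood without knockout replicate 3 (0.44 and 0.30) and ended with the 6 flow libraries alone. They also ended without wild-type replicate 2 (0.28 and 0.20), wild-type replicate 3 (0.34 and 0.30) or knockout replicate 1 (0.27 and 0.25), and that of Hspa5 without knockout replicate 2 (0.29).

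**Figure D2:**
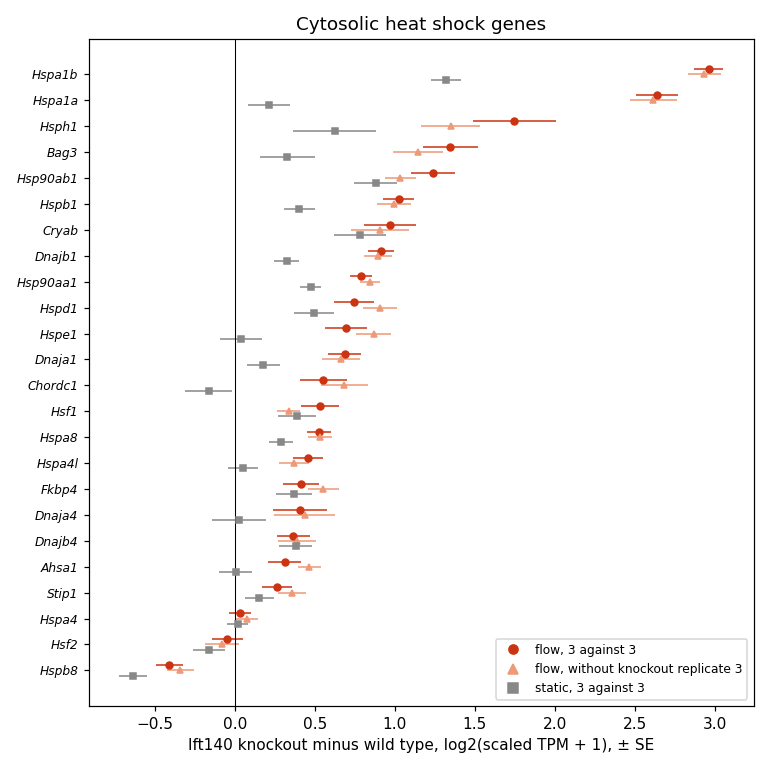
Each row is 1 of the 24 genes tested of the cytosolic heat shock list, which includes the mitochondrial Hspd1 and Hspe1. The x axis gives the Ift140 knockout minus wild-type difference on the log2(scaled TPM + 1) scale, with bars of ± 1 SE, for flow with all 6 libraries (circles), flow without knockout replicate 3 (triangles) and static culture (squares). Hspa1b (2.96) and Hspa1a (2.64) lie furthest to the right under flow, and Hspa1a is the gene whose flow and static values are furthest apart.

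The largest falls under flow were of genes nearly lost from the knockout line. Serpinh1 (chr7:99345376-99353239), the collagen chaperone HSP47 of the endoplasmic reticulum, stood at 145, 144 and 148 scaled TPM in wild type and at 0.55, 0.28 and 0.50 in the knockout. Cubn (chr2:13276338-13491813), the endocytic receptor cubilin, stood at 428, 352 and 349 against 5.56, 3.87 and 6.01. The log2 differences were -6.67 ± 0.08 (adjusted p = 1.18e-17) and -5.95 ± 0.16 (adjusted p = 5.77e-13), and -6.70 and -6.05 without replicate 3. Both genes were as low in knockout cells kept static, at -6.68 ± 0.08 and -6.61 ± 0.16.

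Grb10, an adaptor that restrains insulin and IGF1 receptor signalling, stood at 29.7, 35.1 and 33.9 scaled TPM in wild type and did not exceed 0.052 in the knockout (-5.05 ± 0.13, adjusted p = 4.27e-13, and -5.03 without replicate 3). Ank2, the membrane scaffold ankyrin-B, stood at 42.5, 36.0 and 33.8 against 0.06, 0.22 and 1.57, with replicate 3 the highest of the knockout libraries (-4.68 ± 0.25, adjusted p = 5.11e-09, and -5.07 ± 0.17 without it). Pygl, the liver-type glycogen phosphorylase, fell by 4.07 ± 0.15 (adjusted p = 3.24e-11) from 16.8 to 21.2 in wild type to at most 0.38, and by 4.17 without replicate 3. Kif21a, a kinesin that slows microtubule growth at the cell cortex, stood at 11.6, 11.5 and 10.7 in wild type and was listed at 0 in all 3 knockout libraries, so no fold is given. In each of these genes the wild-type libraries lay far above all knockout libraries. That they did not overlap was set by the rule that named the largest falls, and for Grb10, Pygl and Kif21a also by the filter.

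Asph, an aspartate hydroxylase of the endoplasmic reticulum, stood at 45.7, 39.4 and 35.9 scaled TPM against 2.34, 2.20 and 1.23 (-3.84 ± 0.15, adjusted p = 1.17e-10, and -3.65 without replicate 3). Nqo1, the quinone reductase, stood at 43.4, 47.1 and 39.4 against 3.43, 4.30 and 2.24 (-3.38 ± 0.23, adjusted p = 1.21e-07, and -3.19 without replicate 3). Ccl2, the chemokine that draws monocytes, stood at 27.4, 18.9 and 17.5 against 2.24, 2.54 and 0.87 (-2.98 ± 0.24, adjusted p = 4.79e-07, and -2.69 without replicate 3). The groups were apart for all 3, as the rule that named the largest falls required. Also among the 15 largest falls were Pamr1 (-3.19), Ephb6 (-3.05), a kinase-dead Eph receptor, Ifi204 (-2.97), a DNA sensor of the interferon response, Cadps2 (-2.84) and Anxa8 (-2.72), and without replicate 3 their differences ran from -3.12 to -2.38.

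All 15 of the largest falls had also passed in static culture in the same direction, where 19.3% of genes tested passed and 9.63% fell. Of the 1885 genes called with and without replicate 3, 69.1% had passed there in the same direction. Against the Dync2h1 knockout line under flow, 10 of the 15 were lower in the Ift140 knockout, none was higher, and 5 did not differ by the test. In that comparison 35.1% of genes were called, 2790 lower and 2565 higher. Without replicate 3 the counts of the 15 were the same, with 29% of genes called, 2242 lower and 2190 higher. The 5 were Cubn, Grb10, Ank2, Pygl and Cadps2. The knockout lines share the wild-type libraries, so their differences from wild type are given side by side and not compared: for these 5 genes they were -6.37, -5.04, -5.24, -4.24 and -2.85 in the Dync2h1 line. For Serpinh1 and Asph, which were also lower than wild type there, the values were -0.75 (adjusted p = 4.75e-06) and -0.57 (adjusted p = 0.0096), and for Nqo1 and Ccl2 they were 0.29 and 1.28. Serpinh1 was 5.92 lower on the log2 scale in the Ift140 line than in the Dync2h1 line (-5.92, adjusted p = 7.52e-17), Nqo1 differed by -3.67 (adjusted p = 1.56e-08) and Ccl2 by -4.26 (adjusted p = 3.44e-09). Without replicate 3 these differences between the knockout lines were -5.94, -3.48 and -3.97.

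**Figure D3:**
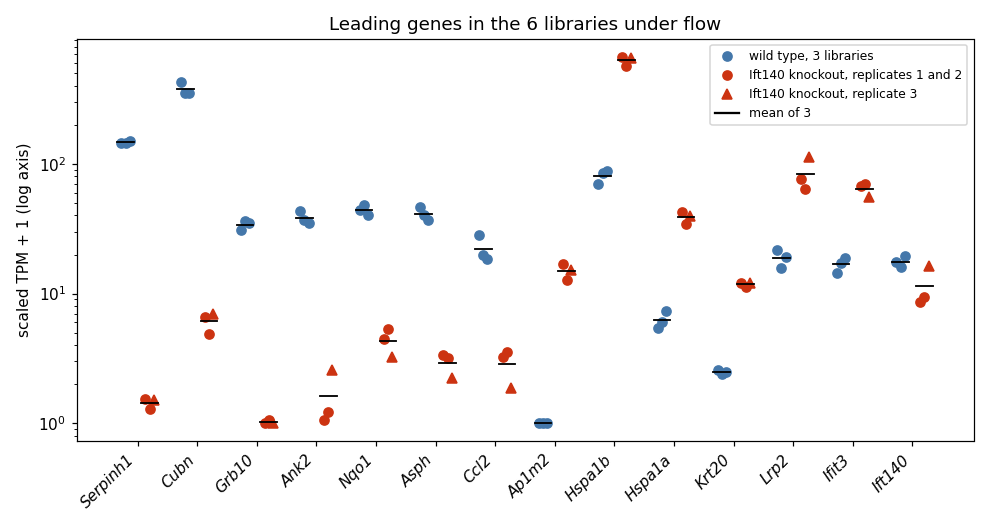
The y axis is scaled TPM + 1 on a log scale for 14 of the genes described, with wild-type flow libraries in blue, Ift140 knockout flow libraries in red, knockout replicate 3 as a triangle, and bars at the mean of the 3 libraries. Serpinh1, Cubn, Grb10, Ank2, Nqo1, Asph and Ccl2 are low in all 3 knockout libraries and Ap1m2, Hspa1b, Hspa1a, Krt20, Lrp2 and Ifit3 high, while Ift140 is the gene in which replicate 3 reaches the wild-type range. All but Ift140 were chosen from genes whose groups did not overlap.

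The other 12 of the 15 largest rises were of genes with varied roles. Ap1m2 (chr9:21294275-21312337), the epithelial subunit of the AP-1 adaptor that sorts proteins to the basolateral membrane, was listed at 0 in all 3 wild-type flow libraries and stood at 15.8, 11.6 and 14.1 scaled TPM in the knockout. No fold is given against a group at 0. Lrp2, the endocytic receptor megalin that works together with cubilin, stood at 20.6, 14.6 and 18.1 in wild type and at 74.9, 62.9 and 112 in the knockout, a log2 difference of 2.13 ± 0.17 (adjusted p = 4.12e-07), and of 1.90 ± 0.13 without replicate 3, its highest library. Lrp2 and Cubn, partners in uptake, thus moved in opposite directions, and so they did in static culture (1.84 and -6.61). Dab2, the adaptor that couples megalin to clathrin, rose too (1.41 ± 0.21, adjusted p = 0.00023, and 1.10 without replicate 3). Of 14 apical endocytic and solute transport genes tested (median 0.03), Lrp2, Dab2 and Cubn were the ones that passed, or 21.4% against 16.8% of all genes. Lrp2 and Cubn are also among the 12 proximal tubule markers, whose summed level was 373 to 454 in wild type and 72.7 to 124 in the knockout, with Slc34a1, Slc22a6 and Miox, defining genes of that segment, listed at 0 in all 18 libraries.

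Krt20, a keratin of terminally differentiated epithelium, stood at 1.55, 1.42 and 1.48 scaled TPM against 11.1, 10.3 and 11.1 (2.25 ± 0.16, adjusted p = 1.57e-07, and 2.23 without replicate 3). Cftr, the cyclic AMP-gated chloride channel, stood at 3.59, 2.03 and 2.31 against 8.15, 11.1 and 11.4 (1.63 ± 0.18, adjusted p = 2.09e-05, and 1.55 without replicate 3). Fras1, an extracellular matrix protein of epithelial basement membranes, stood at 9.26, 6.52 and 5.66 against 20.6, 15.0 and 44.5 (1.64 ± 0.30, adjusted p = 0.0013, and 1.21 without replicate 3), and its call ended with the 6 flow libraries alone. Replicate 3 held more than 2-fold the Fras1 level of the other knockout libraries.

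The remaining rises were Ms4a2 (2.25), Pnpla7 (2.20), a lysophospholipase, Arhgdig (1.96), Bst1 (1.73), an ADP-ribosyl cyclase, Cyp1b1 (1.63), an aryl hydrocarbon receptor target, and Uchl1 (1.61), a ubiquitin hydrolase, and without replicate 3 they ranged from 1.51 to 2.34. Of the 15 largest rises, which include Hspa1b, Hspa1a, Hsph1 and Ifit3, 13 had passed in static culture in the same direction, where 9.66% of all genes rose. Hspa1a (0.21, adjusted p = 0.28) and Hsph1 (0.62, adjusted p = 0.11) had not. Of the 1885 genes called with and without replicate 3, 69.1% had passed in static culture in the same direction. Against the Dync2h1 line under flow, 2565 of all 15261 genes were higher and 2790 lower in the Ift140 knockout. Of the 15 rises, 11 were higher there, 1 was lower (Ap1m2, -2.29, adjusted p = 2.19e-09) and 3 did not differ by the test (Arhgdig, Ifit3 and Cyp1b1). Without replicate 3, Arhgdig (0.48, adjusted p = 0.018) and Ifit3 (0.37, adjusted p = 0.027) were higher too and Hsph1 (0.51, adjusted p = 0.053) no longer was, so that 12 were higher, 1 was lower and 2 did not differ by the test. Beside this, the differences from the shared wild-type libraries in the Dync2h1 line were -2.20 for Lrp2, -2.07 for Fras1 and 0.51 for Cftr.

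Interferon-stimulated genes, the antiviral programme that interferons switch on, fell in part, while Ifit3 rose. Of 25 tested, 10 fell and 2 rose with all libraries (48.0% passed, against 16.8% of all genes). In the fit without replicate 3, 6 fell and 2 rose, and 5 fell and 1 rose with the 6 flow libraries alone. The median log2 difference was -0.58, or -0.39 without replicate 3, against 0.015 over all genes. In static culture 10 fell and 1 rose, where 9.63% of all genes fell and 9.66% rose. Ddx58, the RNA sensor RIG-I, stood at 23.4, 24.4 and 32.6 scaled TPM against 13.9, 12.3 and 11.1 (-1.04 ± 0.15, adjusted p = 0.0002, and -0.97 without replicate 3). Ifih1, the RNA sensor MDA5, stood at 18.9, 20.2 and 17.7 against 9.21, 9.42 and 9.27 (-0.95 ± 0.16, adjusted p = 0.0006, and -0.95 without replicate 3). The guanylate-binding protein Gbp2 stood at 10.2, 13.1 and 15.2 against 3.60, 3.37 and 4.49 (-1.51 ± 0.26, adjusted p = 0.00095, and -1.60 without replicate 3). Ifit3, an RNA-binding effector of the same response, went the other way, with 13.3, 16.3 and 17.7 in wild type and 66.4, 69.3 and 54.8 in the knockout (1.95 ± 0.11, adjusted p = 1.52e-08, and 2.05 without replicate 3). In none of these 4 genes did the groups overlap.

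Genes of the NF-kB response, among them chemokines and adhesion molecules, fell in part too. Of 18 tested, 7 fell and 1 rose, or 44.4% against 16.8% of all genes, with a median of -0.32. The counts were 6 and 1 without replicate 3, and 4 and 1 with the 6 flow libraries alone. Besides Ccl2, the adhesion molecule Vcam1 stood at 8.87, 9.15 and 8.04 scaled TPM against 1.41, 1.21 and 1.35 (-2.06 ± 0.13, adjusted p = 3.09e-08, and -2.07 without replicate 3). Relb, an NF-kB subunit of the non-canonical branch, stood at 54.8, 63.9 and 55.7 against 37.9, 37.8 and 33.5 (-0.66 ± 0.08, adjusted p = 6.6e-05, and -0.60 without replicate 3). The member that rose was Lcn2, the iron-binding lipocalin released by injured tubules, at 12.9, 15.7 and 18.2 against 39.9, 32.3 and 37.6 (1.19 ± 0.14, adjusted p = 3e-05, and 1.17 without replicate 3). Each of the 3 genes had knockout and wild-type libraries fully apart, as had 1842 of the 1885 genes called with and without replicate 3.

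Targets of NRF2, the transcription factor of the oxidant and electrophile response, fell in part. Of 26 tested, 8 fell and none rose with all libraries (30.8%, where 8.18% of all genes fell), 4 fell and none rose without replicate 3 (7.32% of all genes fell), and 2 fell with the 6 flow libraries alone (2.37% of all genes fell), with a median of -0.28 (-0.22 without replicate 3). The 4 that fell both ways were Nqo1 and 3 enzymes of thiol chemistry. Gsr, glutathione reductase, stood at 362, 334 and 378 scaled TPM against 221, 215 and 192 (-0.77 ± 0.09, adjusted p = 2.97e-05, and -0.71 without replicate 3). Txnrd1, thioredoxin reductase, stood at 708, 601 and 600 against 436, 499 and 487 (-0.42 ± 0.08, adjusted p = 0.0022, and -0.44 without replicate 3), and Gsta1, a glutathione transferase, at 14.1, 9.96 and 12.1 against 5.29, 7.15 and 3.45 (-1.08 ± 0.26, adjusted p = 0.0093, and -0.85 without replicate 3). The groups did not overlap in any of the 3, and the calls of Txnrd1 and Gsta1 ended with the 6 flow libraries alone. Gsta1 belongs to a family of close copies, between which reads can be split.

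Glycolytic genes and targets of the hypoxia-inducible factors moved in both directions. Of 33 tested, 14 rose and 4 fell, or 54.5% against 16.8% of all genes, with a median of 0.30 (0.28 without replicate 3). The counts were 15 and 3 without replicate 3, and 5 and 3 with the 6 flow libraries alone. Slc16a3, the lactate exporter MCT4, stood at 14.5, 13.9 and 15.1 scaled TPM against 41.7, 45.3 and 46.6 (1.55 ± 0.08, adjusted p = 3.39e-09, and 1.52 without replicate 3). Aldoc, an aldolase, stood at 20.8, 25.4 and 22.4 against 49.5, 55.2 and 46.7 (1.11 ± 0.10, adjusted p = 1.28e-06, and 1.16 without replicate 3). Of the members that fell, 3 did so both ways: Egln3, the oxygen-sensing prolyl hydroxylase PHD3, stood at 3.87, 4.09 and 4.19 against 0.25, 0.30 and 0.24 (-2.0 ± 0.11, adjusted p = 8.36e-09), Ak4, a mitochondrial adenylate kinase, at 8.44, 6.22 and 7.25 against 3.04, 2.89 and 2.17 (-1.16 ± 0.15, adjusted p = 6.09e-05), and Eno2, an enolase, at 4.24, 4.5 and 4.85 against 1.2, 1.77 and 2.60 (-0.98 ± 0.17, adjusted p = 0.00088). Without replicate 3 these were -1.98, -1.06 and -1.16. The rise was thus not shared by all members, and the 5 named here had groups that did not overlap, which for Egln3 was set by the filter. In static culture 15 of the 33 rose and 2 fell, where 9.66% of all genes rose and 9.63% fell.

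Matrix genes moved both ways. Of 36 extracellular matrix and protease genes tested, 9 rose and 8 fell, or 47.2% against 16.8% of all genes. The counts were 8 and 9 without replicate 3, and 8 and 3 with the 6 flow libraries alone. Their median was 0.06, or -0.10 without replicate 3. Beside Serpinh1, the falls included Col5a1, a fibrillar collagen chain (-2.31 ± 0.23, adjusted p = 6.69e-06, and -2.19 without replicate 3), at 5.01, 6.10 and 7.59 scaled TPM against 0.31, 0.88 and 0.23, and Lama3, a laminin chain of epithelial basement membranes (-0.88 ± 0.09, adjusted p = 6.62e-06, and -0.91 without replicate 3), at 95.7, 74.6 and 77.0 against 44.3, 41.8 and 46.7. Spp1, osteopontin, rose by 0.74 ± 0.09 (adjusted p = 2.85e-05) from 319, 268 and 268 to 470, 532 and 430, and by 0.81 without replicate 3.

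Genes of epithelial identity and junctions moved in both directions as well. Of 38 tested, 9 fell and 3 rose, or 31.6% against 16.8% of all genes, with a median of -0.15. The counts were 10 and 4 without replicate 3, and 2 and none with the 6 flow libraries alone. Spint1, an inhibitor of matriptase, stood at 312, 300 and 293 scaled TPM against 208, 203 and 188 (-0.59 ± 0.06, adjusted p = 2.93e-06), and Cdh16 at 339, 323 and 319 against 240, 215 and 226 (-0.53 ± 0.06, adjusted p = 4.57e-05). Of the tight junction genes, Cgn, cingulin, differed by -0.45 ± 0.08 (adjusted p = 0.00099) and Ocln, occludin, by -0.55 ± 0.10 (adjusted p = 0.0015). Without replicate 3 the 4 differences were -0.55, -0.52, -0.53 and -0.53, and the calls of Cgn and Ocln ended with the 6 flow libraries alone. Mesenchymal genes did not rise together either: of 13 tested, 2 rose and 3 fell, or 38.5% against 16.8% of all genes (1 and 5 without replicate 3). Twist1, a transcription factor of mesenchymal state, stood at 4.81, 5.13 and 4.21 against 0.18, 0.10 and 0.14 (-2.32 ± 0.12, adjusted p = 4.95e-09, and -2.32 without replicate 3). Ncam1, a neural cell adhesion molecule, fell by 0.90 ± 0.12 (adjusted p = 0.00013) and Vim, vimentin, by 0.62 ± 0.12 (adjusted p = 0.0017), while Cdh2, N-cadherin, rose by 0.51 ± 0.09 (adjusted p = 0.0012), a call that ended with the 6 flow libraries alone. The Vim libraries stood at 323, 342 and 338 in wild type and at 237, 230 and 190 in the knockout. Without replicate 3 the differences of Ncam1, Vim and Cdh2 were -0.93, -0.52 and 0.42.

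**Figure D4:**
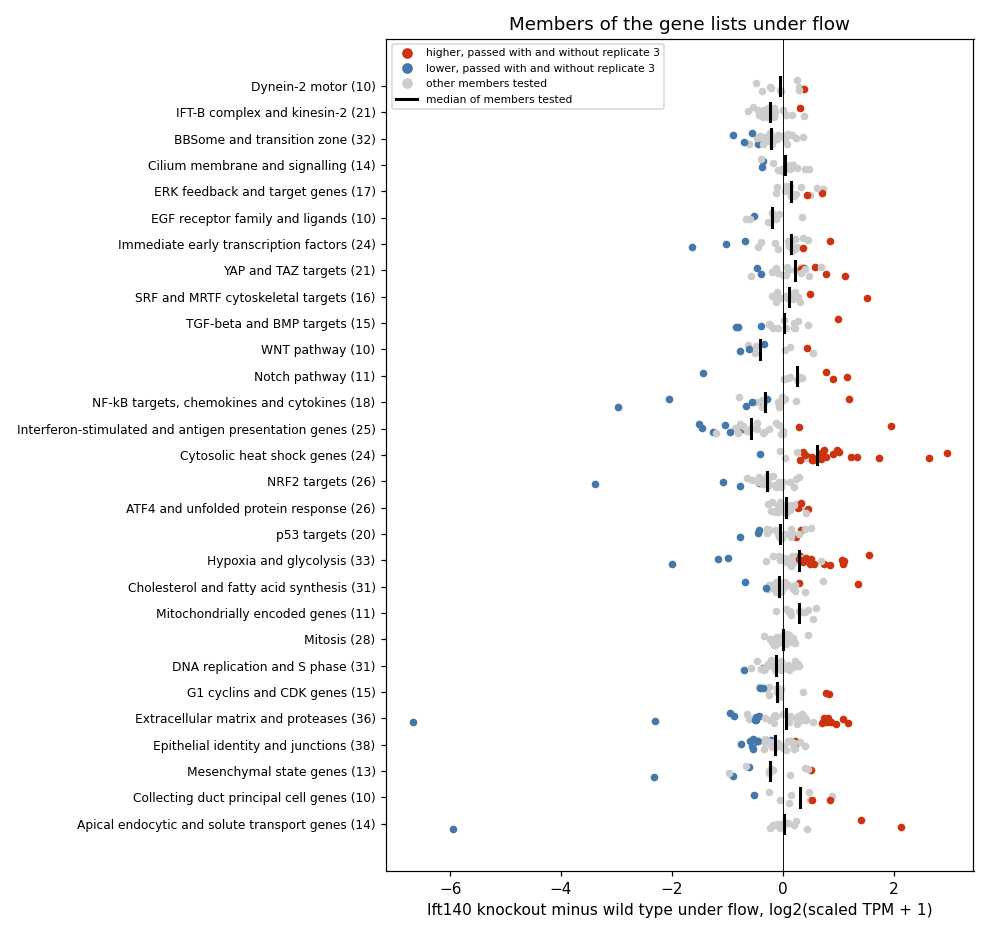
Each point is a tested gene, in rows by gene list on the y axis with the number tested, for the lists with at least 10 tested members, and the x axis is the knockout minus wild-type log2 difference under flow. Red and blue points passed with and without replicate 3, higher and lower, and the bars are medians, of which that of the cytosolic heat shock genes (0.62) lies furthest right and that of the interferon-stimulated genes (-0.58) furthest left.

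Of the genes of the cilium, 10.0% of the dynein-2 list, 9.5% of the IFT-B and kinesin-2 list, 12.5% of the BBSome and transition zone list and 14.3% of the ciliary membrane list passed under flow, where 16.8% of all genes did. Of the 7 IFT-A genes 2 passed (28.6%), Ift140 and Tulp3. In static culture, where 9.63% of all genes fell, 4 of the 7 fell: Ift140, Wdr19 (-0.90, adjusted p = 0.00052), Ttc21b (-0.46, adjusted p = 0.026) and Ift122 (-0.42, adjusted p = 0.0071). Of the 6 other IFT-A members, only Tulp3, an adaptor that delivers receptors into cilia, passed, and only with replicate 3: its wild-type libraries stood at 3.24, 3.31 and 2.39 scaled TPM and the knockout ones at 4.57, 4.26 and 11 (0.84 ± 0.27, adjusted p = 0.045, and 0.45, adjusted p = 0.18, without replicate 3). Its call also ended without any 1 of the wild-type replicates (0.89, 0.90 and 0.72). Ift122, Ift43, Wdr19, Wdr35 and Ttc21b had differences from -0.39 to -0.15, or -0.41 to -0.09 without replicate 3, and did not pass under flow either way. Dync2h1, the dynein-2 heavy chain, stood at 35.4, 27.9 and 30.9 against 22.7, 28.3 and 42.4, overlapping groups (-0.05 ± 0.21, adjusted p = 0.90, and -0.29 without replicate 3). Of 10 dynein-2 genes 1 rose, the light chain Dynll1 (0.39 ± 0.10, adjusted p = 0.010, and 0.44 without replicate 3), which also serves cytoplasmic dynein. Of 21 genes of IFT-B and kinesin-2, 1 rose and 1 fell, and Ift22, the member called both ways, differed by 0.31 ± 0.09 (adjusted p = 0.028, and 0.32 without replicate 3). None of these calls held with the 6 flow libraries alone. That of Dynll1 ended without wild-type replicate 1 (0.29), and that of Ift22 without wild-type replicate 1 or 2 or knockout replicate 2 (0.27, 0.28 and 0.25).

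Of 32 genes of the BBSome, a cargo adaptor of the cilium, and of the transition zone, the gate at its base, 4 fell and none rose (5 and none without replicate 3), with a median of -0.22. Cc2d2a, a transition zone protein, stood at 19.6, 14.9 and 18.3 scaled TPM against 7.45, 11.2 and 8.46 (-0.90 ± 0.16, adjusted p = 0.001, and -0.87 without replicate 3), with the groups apart. The others were Ahi1 (-0.71 ± 0.16, adjusted p = 0.0075), Tctn1 (-0.55 ± 0.16, adjusted p = 0.031) and Bbs2 (-0.44 ± 0.14, adjusted p = 0.041), which passed without replicate 3 (-0.74, -0.74 and -0.48) and not with the 6 flow libraries alone. Without wild-type replicate 1 or knockout replicate 1 or 2 the calls of Tctn1 (-0.50, -0.44 and -0.47) and Bbs2 (-0.36, -0.39 and -0.45) ended, as they did for Tctn1 without wild-type replicate 2 (-0.53) and for Bbs2 without wild-type replicate 3 (-0.46). Among 14 genes of the ciliary membrane, the polycystic kidney disease genes Pkd2, a cation channel (-0.35 ± 0.08, adjusted p = 0.0047, and -0.30 without replicate 3), and Pkhd1, fibrocystin (-0.37 ± 0.12, adjusted p = 0.041, and -0.49 without replicate 3), fell, and again not with the 6 flow libraries alone. Pkhd1 libraries overlapped, at 343, 262 and 241 in wild type and 188, 209 and 256 in the knockout, and its call ended without wild-type replicate 1 or 2 (-0.22 and -0.41) or knockout replicate 1 or 2 (-0.27 and -0.34). No Hedgehog pathway gene of 7 tested rose or fell with all libraries, and 1 fell without replicate 3.

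The ERK kinase cascade induces its own feedback inhibitors and a set of transcription factors. Of 17 such genes, 3 rose and none fell under flow (2 and none without replicate 3). In static culture 8 rose and none fell, where 9.66% of all genes rose and 9.63% fell. The 17.6% that passed under flow is near the 16.8% of all genes. For 3 of them, Dusp4, Dusp6 and Ier3, the genotype difference was smaller under flow than static when that change was itself tested (-0.86, -1.14 and -0.93). Etv4, an ETS factor, stood at 14.3, 14.7 and 11.4 scaled TPM against 20.2, 21.0 and 26.4 (0.70 ± 0.12, adjusted p = 0.00093, and 0.59 without replicate 3), and Ier3, an early response gene, at 119, 109 and 99.6 against 168, 138 and 139 (0.44 ± 0.09, adjusted p = 0.0049, and 0.48 without replicate 3). Erbb3, a receptor of the EGF family, stood at 59.5, 54.9 and 56.1 against 39.8, 38.1 and 39.8 (-0.52 ± 0.08, adjusted p = 0.0002, and -0.53 without replicate 3). Groups were apart for all 3, and the calls of Etv4 and Ier3 ended with the 6 flow libraries alone. Of 10 genes of the EGF receptor family and its ligands, 1 rose and 2 fell (none and 2 without replicate 3).

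Of 24 immediate early factors, 2 rose and 4 fell, or 25.0% against 16.8% of all genes (2 and 3 without replicate 3). Klf4, a zinc finger factor of epithelial differentiation, stood at 2.19, 2.17 and 3.33 scaled TPM against 0.10, 0.08 and 0.20 (-1.65 ± 0.17, adjusted p = 6.47e-06, and -1.69 without replicate 3), and Klf2, known as a shear stress gene in endothelium, at 6.49, 5.27 and 5.10 against 2.46, 1.86 and 2.44 (-1.02 ± 0.17, adjusted p = 0.00073, and -1.07 without replicate 3). Btg2, an antiproliferative early gene, fell by 0.68 ± 0.10 (adjusted p = 0.00025), from 58.2, 47.9 and 48.0 to 32.7, 31.6 and 30.3, and by 0.65 without replicate 3. Srf, the serum response factor, rose by 0.37 ± 0.09 (adjusted p = 0.0089), and by 0.38 without replicate 3. No knockout library of Klf4, Klf2 or Btg2 reached a wild-type one, which for Klf4 was set by the filter. The call of Srf ended with the 6 flow libraries alone.

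Targets of YAP and TAZ, coactivators that respond to cell shape and tension, rose in part: 7 of 21 rose and 2 fell, or 42.9% against 16.8% of all genes. The counts were 5 and 2 without replicate 3, and 2 and none with the 6 flow libraries alone. Their median was 0.22, or 0.05 without replicate 3. Crim1, a transmembrane BMP antagonist, stood at 77.6, 75.6 and 67.0 scaled TPM against 151, 144 and 194 (1.13 ± 0.10, adjusted p = 1.01e-06, and 1.00 without replicate 3), and Amotl2, a feedback inhibitor of YAP, at 152, 173 and 166 against 266, 230 and 245 (0.59 ± 0.08, adjusted p = 6.84e-05, and 0.60 without replicate 3). Wwc1, the Hippo scaffold KIBRA, rose by 0.78 ± 0.14 (adjusted p = 0.00094) and by 0.54 ± 0.06 without replicate 3, in which it was at 244 against 145 and 150 in the other knockout libraries. F3, tissue factor, fell by 0.40 ± 0.08 (adjusted p = 0.0034), and by 0.38 without replicate 3. The calls of Wwc1 and F3 ended with the 6 flow libraries alone. Of 16 cytoskeletal targets of SRF, 2 rose and none fell, or 12.5% against 16.8% of all genes (3 and none without replicate 3). Among them was Fhl1, a LIM domain protein, at 16.0, 26.6 and 19.6 against 56.4, 60.0 and 64.7 (1.53 ± 0.14, adjusted p = 2.56e-06, and 1.48 without replicate 3).

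Of the Notch, TGF-beta and WNT lists, 36.4%, 26.7% and 40.0% passed, against 16.8% of all genes. Each list had members that rose and members that fell. Of 11 Notch genes, 3 rose and 1 fell, with and without replicate 3 and with the 6 flow libraries alone. The ligand Jag1 stood at 143, 114 and 113 scaled TPM against 200, 186 and 253 (0.78 ± 0.13, adjusted p = 0.0006, and 0.65 without replicate 3), and the ligands Dll1 (1.17 ± 0.24, adjusted p = 0.0031) and Dll4 (0.91 ± 0.21, adjusted p = 0.0062) rose from low levels of 1.15 ± 0.04 and 0.46 ± 0.11 to 3.84 ± 0.60 and 1.75 ± 0.22 (SD, n = 3), with differences of 1.06 and 0.88 without replicate 3. Lfng, the glycosyltransferase that tunes Notch to its ligands, stood at 90.7, 81.0 and 74.3 against 32.1, 31.7 and 25.4 (-1.44 ± 0.12, adjusted p = 1.24e-06, and -1.33 without replicate 3). None of the 4 had overlapping groups, which for Dll4 was set by the filter. Dll4 was under 1 TPM in every wild-type library, so it could only be counted as a rise.

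Of 15 TGF-beta and BMP genes, 1 rose and 3 fell, also without replicate 3. Fst, follistatin, which binds activins, stood at 150, 130 and 141 scaled TPM against 296, 273 and 272 (1.00 ± 0.08, adjusted p = 4.12e-07, and 1.02 without replicate 3). The ligand Tgfb3 fell by 0.81 ± 0.16 (adjusted p = 0.0028) from 5.12 ± 0.56 to 2.48 ± 0.33, and the ligand Bmp7 by 0.85 ± 0.23 (adjusted p = 0.021) from 1.82 ± 0.24 to 0.57 ± 0.16 (SD, n = 3), and without replicate 3 they fell by 0.73 and by 0.90. Of 10 WNT genes, 1 rose and 3 fell (1 and 5 without replicate 3). The ligand Wnt4 differed by -0.61 ± 0.14 (adjusted p = 0.0062), Wnt7a by 0.44 ± 0.10 (adjusted p = 0.0068), Wnt5a by -0.77 ± 0.22 (adjusted p = 0.028) and the R-spondin receptor Lgr4 by -0.33 ± 0.09 (adjusted p = 0.021), and all these calls stood without knockout replicate 3 (-0.44, 0.36, -1.0 and -0.35). The call of Wnt5a ended without wild-type replicate 2 or 3 or knockout replicate 1 or 2 (-0.74, -0.70, -0.64 and -0.67), that of Lgr4 without wild-type replicate 1 or 2 or knockout replicate 1 (-0.32, -0.31 and -0.29), and that of Bmp7 without wild-type replicate 1 or knockout replicate 2 (-0.78 and -0.76). With the 6 flow libraries alone no WNT gene passed, nor did Bmp7. Bmp7 was under 1 TPM in every knockout library. It passed the filter through wild type alone and could only be counted as a fall.

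Of the cell cycle lists, 3.6% of the mitosis, 25.8% of the replication and 33.3% of the G1 genes passed under flow, against 16.8% of all genes. Of 28 mitosis genes, 1 fell and none rose with all libraries and none passed without replicate 3. Of 31 replication genes, 7 fell and 1 rose (8.18% of all genes fell), and 2 fell and 1 rose without replicate 3 (7.32% of all genes fell). In static culture 8 mitosis genes fell and none rose, and 9 replication genes fell and 1 rose, where 9.63% of all genes fell. Those that fell both ways were Mcm6, a helicase subunit (464 ± 16.8 against 362 ± 23.9 scaled TPM, SD, n = 3, with a log2 difference of -0.36 ± 0.06, adjusted p = 0.0012), and Pola1, the DNA polymerase alpha catalytic subunit (99.1 ± 3.73 against 62.1 ± 14, -0.69 ± 0.16, adjusted p = 0.0076), with differences of -0.30 and -0.49 without replicate 3. Neither passed with the 6 flow libraries alone. Of the G1 genes, Ccnd1, cyclin D1, stood at 19.4, 19.3 and 20.3 against 35.4, 35.3 and 33.4 (0.79 ± 0.07, adjusted p = 9.45e-07, and 0.81 without replicate 3), with groups fully apart, and Ccnd3, cyclin D3, rose by 0.84 ± 0.16 (adjusted p = 0.0019, and 0.76 without replicate 3). In all, 2 of 15 G1 genes rose and 3 fell (2 and 2 without replicate 3).

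Of 31 lipid synthesis genes, 4 rose and 3 fell, or 22.6% against 16.8% of all genes (2 and 2 without replicate 3). Scd1, the stearoyl-CoA desaturase, stood at 19.1, 15.8 and 20.3 scaled TPM against 51.1, 43.0 and 52.4 (1.36 ± 0.10, adjusted p = 1.31e-07, and 1.31 without replicate 3). Insig1, the sterol sensor that holds SREBP in the endoplasmic reticulum, stood at 380, 351 and 336 against 243, 237 and 185 (-0.69 ± 0.08, adjusted p = 4.88e-05, and -0.56 without replicate 3). Of 20 p53 targets, 3 rose and 3 fell (2 and 3 without replicate 3), led by Sesn1, a sestrin that restrains mTORC1, at 16.6, 17.8 and 16.6 against 10.2, 9.57 and 8.77 (-0.77 ± 0.09, adjusted p = 3e-05, and -0.72 without replicate 3). Groups did not overlap in these 3 genes. None of 11 mitochondrially encoded genes passed either way.

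Among tubule transport and segment genes, Trpm6, the apical magnesium channel of the distal tubule, stood at 92.8, 85.4 and 76.3 scaled TPM against 38.7, 38.8 and 46.5 (-1.02 ± 0.10, adjusted p = 3.79e-06, and -1.11 without replicate 3), with every knockout library below every wild-type one. It carries most of the summed level of the 10 thick limb and distal tubule markers, 78.9 to 96.6 in wild type and 40.4 to 49.4 in the knockout. Of 10 principal cell genes that reached the filter, of 25 listed, 2 rose and 1 fell both ways, among them the prostaglandin receptor Ptger4 (0.53 ± 0.10, adjusted p = 0.0026, and 0.44 without replicate 3) and Nr3c2, the mineralocorticoid receptor (-0.52 ± 0.15, adjusted p = 0.025, and -0.53 without replicate 3). The call of Nr3c2 ended without wild-type replicate 1 or 2 or knockout replicate 2 (-0.47, -0.47 and -0.48). None of the 10 passed with the 6 flow libraries alone.

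Most genes that differed under flow also differed without it. Of the 1885 genes called with and without replicate 3, 1302 (69.1%) had passed in static culture in the same direction, which is 44.2% of the 2943 static calls (19.3% of genes tested), and 6 had passed in the opposite direction. In sign, 96.3% of the 1885 matched the static difference, against 74.5% of all genes tested. Across the 15261 genes the flow and static differences had a Pearson r of 0.69, or 0.65 without replicate 3. These points are genes, not independent replicates, and all come from the same 12 libraries.

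The change of the genotype difference with flow was tested directly, as knockout minus wild type under flow less the same in static culture. It passed for 39 genes (0.256%), 14 upward and 25 downward, and for 71 (0.465%) without replicate 3, of which 38 were in both. With only these 12 libraries in the fit the count was 6, and leaving out single libraries gave 16 to 71: it was 16, 22 and 22 without static wild-type replicates 1, 2 and 3, and 21 and 25 without static knockout replicates 1 and 3. Hspa1a showed the largest change: its wild-type level went from 0.74 ± 0.08 static to 5.25 ± 0.97 under flow and its knockout level from 1.02 ± 0.14 to 37.8 ± 4.28 scaled TPM (SD, n = 3), a change of 2.42 ± 0.18 (adjusted p = 1.16e-05, and 2.40 without replicate 3). Hspa1b went from 27.3 ± 1.71 to 80.1 ± 9.27 in wild type and from 69.8 ± 7.31 to 630 ± 49.8 in the knockout, a change of 1.64 ± 0.13 (adjusted p = 1.16e-05, and 1.62 without replicate 3). Dnajb1 was the other member of the heat shock list that passed (0.59 ± 0.11, adjusted p = 0.037, and 0.57 without replicate 3). Its means were 57.1 and 71.9 static and 93.9 and 178 under flow, so that for all 3 the step from static to flow was the larger one in the knockout.

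Several downward changes were of signalling genes that were already higher in the static knockout. Ctgf, a secreted YAP target, stood at 81.3 ± 12.7 scaled TPM in static wild type and 252 ± 5.63 in the static knockout, and at 510 ± 19.2 and 641 ± 67.0 under flow (SD, n = 3), so that the genotype difference went from 1.63 to 0.33, a change of -1.31 ± 0.14 (adjusted p = 0.00064). Dusp6, the phosphatase that shuts off ERK, stood at 23.7 ± 1.22 and 63.8 ± 6.20 static and at 193 ± 28.0 and 227 ± 5.82 under flow, a change of -1.14 ± 0.13 (adjusted p = 0.00066). Plau, the urokinase plasminogen activator, went from higher to lower in the knockout: 67.5 ± 8.41 against 110 ± 2.44 static and 199 ± 24.6 against 142 ± 15.1 under flow, a change of -1.18 ± 0.15 (adjusted p = 0.002). Under flow alone the Plau difference was -0.48 ± 0.10 (adjusted p = 0.0045, and -0.40 without replicate 3), a call that ended with the 6 flow libraries alone, and that of Ctgf (0.33 ± 0.10, adjusted p = 0.038) ended without any 1 of the wild-type replicates (0.36, 0.31 and 0.32) or without knockout replicate 1 or 3 (0.25 and 0.32).

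Krt17, a stress keratin, did not differ by the test in static cells (8.25 ± 1.95 and 8.01 ± 0.55) and was higher under flow in wild type (20.1 ± 2.59) than in the knockout (8.67 ± 0.32), a change of -1.10 ± 0.19 (adjusted p = 0.021). Eno2 stood at 12.9 ± 0.29 and 16.1 ± 2.22 static and at 4.53 ± 0.30 and 1.86 ± 0.71 under flow, a change of -1.28 ± 0.24 (adjusted p = 0.033). Without replicate 3 the 5 changes were -1.31, -1.16, -1.10, -1.12 and -1.46, and all passed. The plot of flow against static differences shows these genes away from the diagonal on which most others lie.

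**Figure D5:**
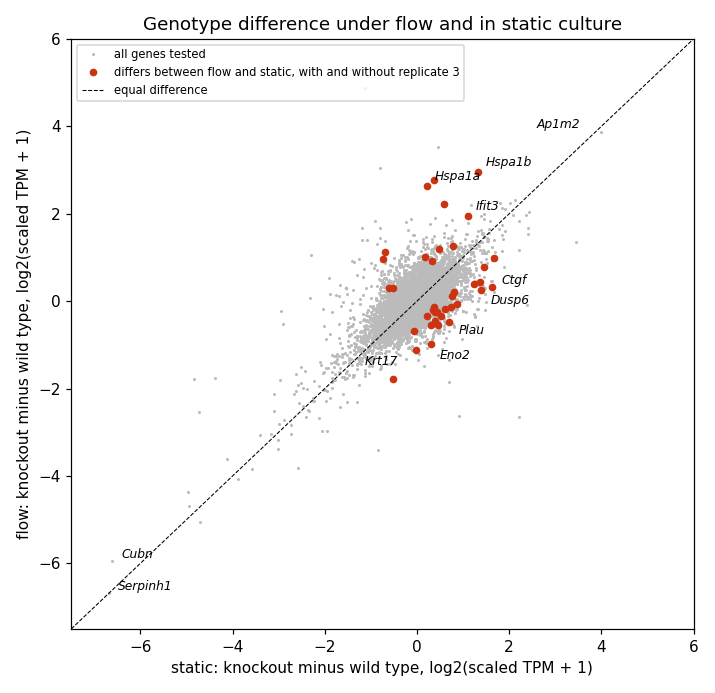
Each point is 1 of the 15261 genes tested, with the Ift140 knockout minus wild-type log2 difference in static culture on the x axis and under flow on the y axis, and the dashed line marks equal differences. The 38 genes in red differed between flow and static with and without replicate 3, with Hspa1a and Hspa1b above the line and Ctgf, Dusp6, Plau, Eno2 and Krt17 below it, while Serpinh1, Cubn and Ap1m2 lie near the line.

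Of the 488 genes called only without replicate 3, those with the largest differences show its part. Lgr6, a WNT-pathway receptor, stood at 12.5, 10.7 and 9.01 scaled TPM in wild type and at 4.68, 3.46 and 15.7 in the knockout, Fam160b2 at 6.61, 4.34 and 6.0 against 2.19, 1.67 and 9.66, and Sned1, a matrix protein, at 12.1, 13.7 and 13.1 against 5.15, 7.78 and 20.1. In each, replicate 3 was the highest of the 6 libraries and the other knockout libraries the lowest. That these other libraries lay below all wild-type ones was set by the choice of genes. The differences were -0.63, -0.55 and -0.41 with all libraries (adjusted p = 0.27, 0.33 and 0.39) and -1.21, -1.17 and -0.92 without replicate 3 (adjusted p = 0.0068, 0.0017 and 0.0041). The microRNA gene Mir6236 showed the same order (-0.56 and -0.97). No gene of the size and separation asked for was called only with replicate 3 and stood at an adjusted p of 0.2 or more without it.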

How the data were processed

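Total RNA of 18 libraries was sequenced, and the authors deposited 1 table of gene-level values per library. These deposited values are TPM, and they were handled as a normalized signal because each table also holds a row with the column total, which was dropped. FastQC 0.11.5, Bowtie2 2.1.0, RSEM 1.2.31 and the builds mm10 and GRCm38.p5 are named in the submitters' processing notes, and read counts were not used here. TPM carries no depth, so no counting interval is given.

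Genes at 1 TPM or more in at least 3 of the 6 flow libraries were kept. Each library was scaled by an unweighted trimmed mean of log ratios (30% of ratios and 5% of abundances trimmed), and log2(scaled TPM + 1) was fitted with limma 3.58.1 in R 4.3.3, with 6 group means, all 18 libraries, 12 residual degrees of freedom, a mean-variance trend and 2-sided tests. The procedure was tested on simulated data, in which a gene had the same spread in all 18 libraries. That test could not show how the fit behaves where the spread differs between groups, as it did here. Of the gene names, 496 matched an older symbol, 2103 matched none and 26 had been turned into calendar dates. Gene coordinates are those of GENCODE for GRCm38.

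Named were the 15 largest rises and 15 largest falls among genes called with and without knockout replicate 3, at 5 scaled TPM or more in the higher group, with flow groups apart. Also named were up to 4 genes per list by smallest p, the IFT-A genes with Dync2h1, up to 4 genes called in 1 of the 2 fits, and the 6 largest changes with flow in each direction. Genes outside this rule (Hspb8, Dusp4, Krt8, Krt18, Aqp2, Kcnj1 and other markers) were named after their values were seen. Members and lists were chosen with earlier results of these data known. Alternatives were other scalings, filters and pseudocounts, only the groups compared, a replicate block, library weights, no trend, and each replicate left out. A few genes that the rule names are not reported here.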

Additional observations from a re-analysis of the deposited data

Results flagged for a closer look

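For 17 of the named genes, out of 39 in all, the Ift140 knockout minus wild-type difference under flow was not the same as in static culture when that change was itself tested (limma, Benjamini-Hochberg adjustment, 3 libraries per group). Upward, on the log2(scaled TPM + 1) scale, the changes were 2.42 for Hspa1a, 1.64 for Hspa1b and 0.59 for Dnajb1 among the heat shock genes, and 0.84 for Ifit3, 1.82 for Col20a1, 1.71 for Tmem181c-ps and 0.90 for Kank3. Col20a1, a collagen, stood at 2.75 ± 1.06 and 1.27 ± 0.26 scaled TPM in static wild type and knockout and at 2.74 ± 0.31 and 7.5 ± 3.16 under flow (SD, n = 3). Tmem181c-ps is a pseudogene, so its reads may belong to its parent gene. Ifit3 was lower under flow than static in both genotypes, at 36.0 and 78.8 static and 15.8 and 63.5 under flow.

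Downward, the changes were -1.31 for Ctgf, -1.28 for Eno2, -1.18 for Plau, -1.14 for Dusp6, -1.10 for Krt17, -1.01 for Kctd11, -0.93 for Ier3, -0.68 for Fst, -0.66 for Ccnd1 and -0.63 for Insig1. Kctd11, an adaptor of a ubiquitin ligase, stood at 4.11 and 5.97 static and at 14.6 and 9.56 under flow, in wild type and knockout. Fst stood at 69.9 and 225 static and 140 and 280 under flow. All 17 passed without knockout flow replicate 3 as well, with changes of -1.46 to 2.40.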

How the results depend on the processing

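The count of genes called under flow (2567) was 679 with the 6 flow libraries alone, or 1098 when knockout replicate 3 was left out of these too (chosen after seeing the data), and 1812 to 3074 when 1 library was left out of the full fit. The static count (2943) was 2010 to 2535 with 1 library left out, and the count against the Dync2h1 line (5355) was 4143 to 5793, and 2899 with only the libraries compared. With deposited TPM not scaled further, 1492 static calls were higher and 1016 lower (1474 and 1469 as reported), and 3444 and 1468 against the Dync2h1 line (2565 and 2790), while the median of all genes in that comparison moved from 0.00 to 0.14. The count for the change with flow (39, 14 upward) was 19 (4 upward) with deposited TPM, 6 with only the groups compared, 87 with library weights, and 16 to 71 with 1 library left out. The causes were not tested. The smaller fits have fewer libraries and residual degrees of freedom (4 against 12 for the flow comparison). They also take the spread from the compared groups alone. Of 122 named genes called, 73 kept call and direction under every alternative run, 47 lost the call with only the groups compared, and none reversed.

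A replicate block gave 2363 calls under flow, 2770 static, 26 for the change with flow and 5211 against the Dync2h1 line. Same-numbered libraries did not deviate together (r = -0.185, -0.024 and -0.071 between wild type and knockout under flow). Over all 15 pairs of groups, 7 of 45 same-numbered library pairs had r above 0.1 and no pair of groups had all 3 above it, so the shared numbers are not treated as pairing the samples. Among the named genes the block ended the flow calls of Bbs2, Pkhd1, Ggt1, Tulp3 and Ctgf. The depth of each library is unknown, which leaves the counting error of low genes unstated.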
